A study of Arabidopsis thaliana with 12 samples.

Results

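The 48 nuclear genes described here encode proteins of the small (40S) subunit of the cytosolic ribosome of Arabidopsis thaliana, and all 48 were taken by their locus identifiers from tables that list 25835 genes in all. Of the 48 genes, 47 were tested, and AT3G09680, which averaged 0.592 FPKM over the 12 libraries, fell under the filter on low values. FPKM (fragments per kilobase and per unit of sequencing depth) is a level per gene length. The libraries were made from 9-day-old whole seedlings of the Columbia ecotype, frozen at ZT16 (hours after lights-on), shortly before dark, after growth at 22 °C in days of 16 h of light and 8 h of dark. Each genotype gave 3 libraries of each kind of RNA, which made 4 groups: ribosome-bound mRNA of the eif4e mutant, ribosome-bound mRNA of wild type, total mRNA of the eif4e mutant and total mRNA of wild type. The genotype label names a mutation of eIF4E, a translation initiation factor, and states neither the allele nor the number of mutant lines. Ribosomes were purified with an antibody, and both kinds of RNA were sequenced as poly(A) RNA with a kit that keeps the strand. The labels do not name a tagged ribosomal protein or the line that carries it. Nothing says that the 3 libraries of a group came from separate plant cultures, so the p-values cover only how these samples vary, which may be technical.

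The 40S subunit scans the mRNA for a start codon and decodes it, and it is built from a ribosomal RNA and a set of ribosomal proteins. eIF4E binds the cap at the 5′ end of an mRNA and brings it to the 40S subunit through the scaffold protein eIF4G. In Arabidopsis nearly every ribosomal protein is encoded by several nuclear genes, called paralogues, whose proteins are alike or nearly so. In plants the translation of ribosomal protein mRNAs is known to vary with light, sugar and the kinase TOR, so an mRNA can be abundant without being loaded on ribosomes in proportion. The 48 genes fell into 23 paralogue sets by the published naming of Arabidopsis ribosomal proteins, with 11 sets of 2 genes, 7 sets of 3 and 5 genes listed alone. These sets hold only genes among the 48 and can be partial. The RPS15A set, for example, leaves out RPS15AD (AT3G46040), and a gene listed alone may have paralogues outside the 48. A RefSeq symbol was annotated for 13 of the 48 genes, and the others are called by their locus identifiers.

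Before the member genes were compared, the mutated gene was checked. EIF4E (AT4G18040) had 12.3, 11.6 and 13.9 FPKM in ribosome-bound mutant libraries 1 to 3, against 71.8, 92.9 and 87.2 FPKM in wild type. In total mRNA it had 8.28, 24.2 and 8.29 FPKM in the mutant, against 45.8, 44.0 and 44.2 FPKM in wild type. All mutant libraries lay below all wild-type libraries, and total mutant library 2 stood apart from the other two. Its log2 change was -2.69 ± 0.33 (SE) on ribosomes and -1.60 ± 0.33 in total mRNA (edgeR adjusted p = 0.000934 and 0.00828), and -2.30 in total mRNA without mutant library 2. The total count of a library was 20083555 to 22034288 in ribosome-bound mutant, 18585324 to 24673644 in ribosome-bound wild type, 17058704 to 19973299 in total mutant and 21707431 to 22539336 in total wild type. Markers of some cell types also moved between genotypes. Of all tested genes, 15.4% rose and 12% fell on ribosomes, and 10.4% rose and 6.54% fell in total mRNA. The summed level of 8 genes of dividing cells was 50.4 to 73.6 FPKM in the mutant and 93.7 to 101 FPKM in wild type on ribosomes, and 46.7 to 66.5 FPKM in the mutant and 84.2 to 94.5 FPKM in wild type in total mRNA. Of these 8 genes, 6 fell on ribosomes and 2 in total mRNA, and none of the 8 rose. The summed level of 10 root genes was 1160 to 1450 FPKM in the mutant and 1700 to 1900 FPKM in wild type on ribosomes, and 1610 to 2020 FPKM in the mutant and 2240 to 2860 FPKM in wild type in total mRNA. Of these, 3 fell and 1 rose on ribosomes, and 3 fell and 0 rose in total mRNA. PYK10 (AT3G09260) made up nearly all of the root sum. On ribosomes PYK10 alone had 1387, 1124 and 1412 FPKM in the mutant, against 1692, 1656 and 1854 FPKM in wild type. It did not pass on ribosomes or in total mRNA (edgeR adjusted p = 0.0574 and 0.0857), so the root sum does not describe the 10 genes alike. All 4 green-shoot genes rose in both kinds of RNA, with summed levels of 18100 to 23800 FPKM in the mutant and 14100 to 18000 FPKM in wild type on ribosomes, and 14700 to 17900 FPKM in the mutant and 10100 to 11200 FPKM in wild type in total mRNA. Of 4 meristem genes 2 passed the filter, of which 1 fell on ribosomes and 1 rose in total mRNA. Their summed level was 18.2 to 19.6 FPKM in the mutant and 23.2 to 27.8 FPKM in wild type on ribosomes, and 18.7 to 22.8 FPKM in the mutant and 19.3 to 25.1 FPKM in wild type in total mRNA. The part of cell composition in the results below was not tested, and in whole seedlings fewer cells of a type and less RNA per cell cannot be told apart.

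The 40S genes were abundant. The median member averaged 191 FPKM over the 12 libraries, against 12.2 FPKM for the median tested gene, and 38 of the 48 members averaged over 100 FPKM. The reads of all members together made up 0.907 ± 0.067% of the counts in ribosome-bound mutant libraries and 0.896 ± 0.016% in ribosome-bound wild type, against 0.746 ± 0.048% in total mutant and 0.593 ± 0.018% in total wild type (SD, n = 3 each). The share ran from 0.691 to 0.780% in total mutant and from 0.577 to 0.613% in total wild type, without overlap. On ribosomes it ran from 0.833 to 0.964% in the mutant and from 0.884 to 0.914% in wild type, with the mutant range around that of wild type.

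In total mRNA, 40S genes rose in the eif4e mutant. Of the 47 tested members, 32 rose and none fell, where 10.4% of all tested genes rose and 6.54% fell, and 45 of the 47 had a positive log2 change. The other 15 did not pass the test at an adjusted p of 0.05. With the replicate number as a block 38 rose, where 16.8% of all tested genes did. The median log2 change was 0.36 among members and -0.004 among all tested genes. Within replicate numbers 1, 2 and 3, taken here as pairs, the median mutant-minus-wild-type difference of the members was 0.26, 0.45 and 0.39, and 42, 45 and 45 of the 47 members were higher in the mutant. Without total mutant library 2, the library with more EIF4E mRNA, 28 members and 1543 of the 19170 tested genes rose, and the median of the members was 0.32.

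The largest rise in total mRNA was that of RPS15A (AT1G07770), a protein of the 40S body. RPS15A had 332, 375 and 388 FPKM in total mutant mRNA, against 198, 185 and 203 FPKM in wild type, a log2 change of 1.03 ± 0.11 (edgeR adjusted p = 0.000207). AT5G28060 followed with 324, 349 and 365 FPKM in the mutant, against 213, 214 and 217 FPKM in wild type (log2 change 0.82 ± 0.10, edgeR adjusted p = 0.000638). RPS18C (AT4G09800), one of 3 genes of a protein of the subunit's head, had 225, 263 and 264 FPKM in the mutant, against 154, 156 and 168 FPKM in wild type (log2 change 0.78 ± 0.08, edgeR adjusted p = 0.000277). AT3G02080, listed without a paralogue, had 176, 205 and 202 FPKM in the mutant, against 134, 129 and 140 FPKM in wild type (log2 change 0.66 ± 0.11, edgeR adjusted p = 0.0026). In each of these 4 genes every mutant library lay above every wild-type library, and the call held without any 1 of the 12 libraries.

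At the other end, 4 members had the lowest changes in total mRNA, and none of them passed the test. AT5G59240 was near the filter, with 0.754, 1.52 and 1.76 FPKM in the mutant, against 1.99, 1.89 and 1.62 FPKM in wild type (log2 change -0.32 ± 0.30, edgeR adjusted p = 0.482). AT3G10090 had 37.2, 39.7 and 46.9 FPKM in the mutant, against 52.5, 46.7 and 56.6 FPKM in wild type (log2 change -0.20 ± 0.09, edgeR adjusted p = 0.155). AT3G53890 had 124, 128 and 137 FPKM in the mutant, against 145, 131 and 149 FPKM in wild type (log2 change 0.01 ± 0.11), and the sign of that value depended on the scaling. AT3G43980 had 39.3, 43.5 and 42.9 FPKM in the mutant, against 43.5, 40.2 and 49.0 FPKM in wild type (log2 change 0.05 ± 0.12). Mean FPKM was lower in the mutant in AT3G53890 (130 against 141) and AT3G43980 (41.9 against 44.2). Their log2 changes were above 0 because FPKM lacks the scaling used in the fit. The groups overlapped in the last 2 genes and in AT5G59240, and in AT3G10090 the highest mutant library lay just above the lowest wild-type library.

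**Figure D1:**
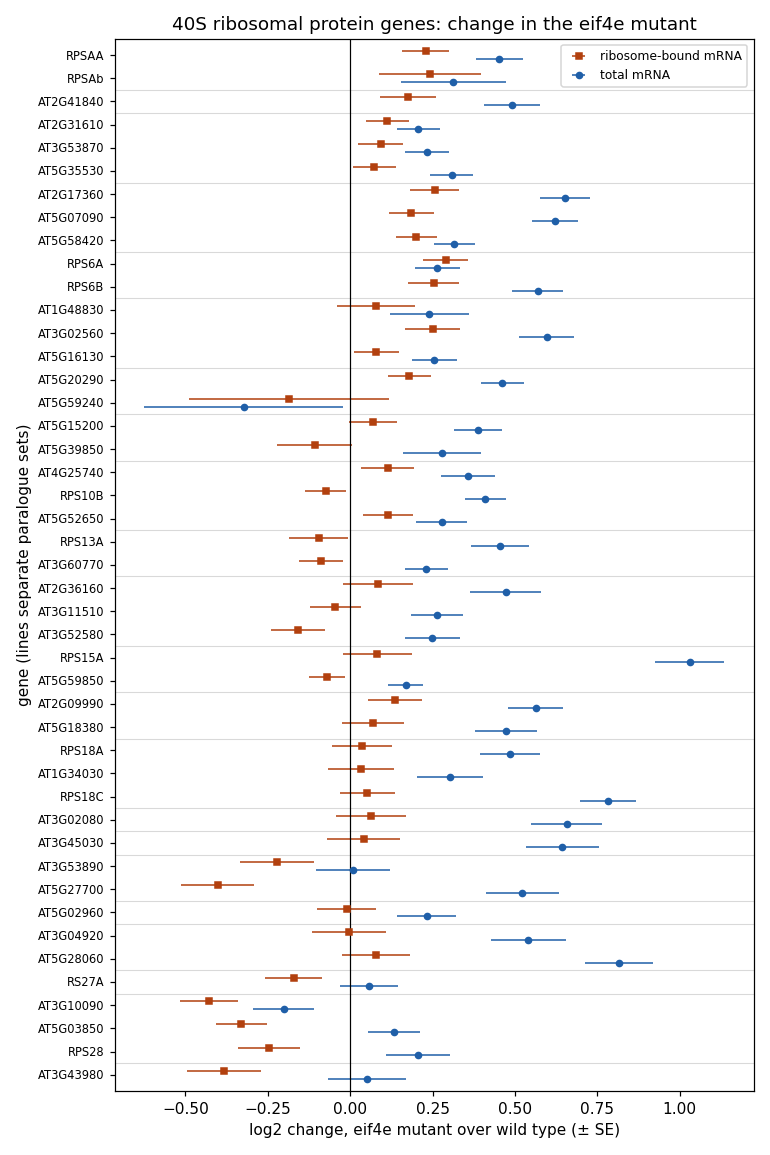
Log2 change (± SE) of 45 of the 47 tested 40S genes in the eif4e mutant over wild type, on ribosomes (squares) and in total mRNA (circles), with lines between paralogue sets. In total mRNA nearly all points lie right of 0 (median of the 47 genes 0.36), while the ribosome-bound points lie around 0 (median of the 47 genes 0.07).

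On ribosomes the same comparison gave few changes in either direction. Of the 47 members, 6 rose and 4 fell, where 15.4% of all tested genes rose and 12% fell, and the median log2 change was 0.07. The within-replicate medians were -0.04, 0.02 and 0.16, with 19, 25 and 39 of 47 members higher in the mutant. The counts rested on single libraries: the 6 became 1 without wild-type library 1 or 2 or mutant library 2 or 3 and 3 without total wild-type library 1, and the 4 became 2 without wild-type library 1 or mutant library 1 or 2 and 7 without mutant library 3. In these runs 1684 to 2747 of the 19170 tested genes rose and 1330 to 2188 fell. When only the ribosome-bound libraries entered the fit, 0 members rose and 1 fell (1348 and 1362 of all tested genes). With library size alone as the scaling 1 rose and 5 fell (2118 and 2673), and with upper-quartile scaling 3 rose and 4 fell (2486 and 2432). Other settings gave more rises: 8 rose and 4 fell with DESeq2 (14% and 12.8% of all tested genes), and 9 rose and 6 fell with the replicate block (20.9% and 20.4%). With a correction for gene length 16 rose and 0 fell (8.68% and 9.58% of all tested genes), 42 of the 47 had a positive change and the median was 0.18, and with the block added 26 rose and 0 fell (15.1% and 19.5%).

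Among the members that rose on ribosomes were both genes of RPS6, the protein that S6 kinase phosphorylates downstream of TOR. RPS6A (AT4G31700) had 261, 288 and 277 FPKM in ribosome-bound mutant mRNA, against 217, 238 and 242 FPKM in wild type (log2 change 0.29 ± 0.07, edgeR adjusted p = 0.0109). RPS6B (AT5G10360) had 260, 293 and 286 FPKM in the mutant, against 229, 246 and 251 FPKM in wild type (log2 change 0.25 ± 0.08, edgeR adjusted p = 0.0327). Mutant libraries lay above wild-type libraries throughout in both genes. RPS6A kept its call without any 1 library, and RPS6B lost it when wild-type library 1 or 2 or mutant library 2 or 3 of ribosome-bound mRNA was left out, with an adjusted p of up to 0.109.

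The other members that rose on ribosomes were RPSAA, AT2G17360, AT5G58420 and AT3G02560. AT2G17360 had 164, 196 and 189 FPKM in the mutant, against 157, 161 and 156 FPKM in wild type (log2 change 0.26 ± 0.07, edgeR adjusted p = 0.027). AT3G02560 had 105, 118 and 122 FPKM in the mutant, against 95.5, 101 and 103 FPKM in wild type (log2 change 0.25 ± 0.08, edgeR adjusted p = 0.0446). The groups did not overlap in either gene. RPSAA (AT1G72370), the Arabidopsis counterpart of the protein first named as a laminin receptor in animals, and AT5G58420 changed by 0.23 and 0.20 on the log2 scale (edgeR adjusted p = 0.034 and 0.0358). Each of these 4 calls was lost without 1 of several libraries: the adjusted p reached 0.074 in AT2G17360, 0.133 in AT3G02560, 0.123 in RPSAA and 0.111 in AT5G58420. Ribosome-bound wild-type libraries 1 and 2 and mutant libraries 2 and 3 were among the libraries concerned in all 4, besides wild-type library 3 (AT2G17360, AT3G02560, AT5G58420), mutant library 1 (AT5G58420), total wild-type library 1 (AT3G02560, RPSAA, AT5G58420), and total wild-type libraries 2 and 3 and total mutant library 2 (AT3G02560).

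The 4 members that fell on ribosomes were all short genes, with lengths of 0.264 to 0.396 of the median tested gene. AT3G10090 had 75.7, 86.3 and 85.1 FPKM in ribosome-bound mutant mRNA, against 111, 118 and 114 FPKM in wild type (log2 change -0.43 ± 0.09, edgeR adjusted p = 0.00691). AT5G27700 had 167, 203 and 228 FPKM in the mutant, against 296, 261 and 258 FPKM in wild type (log2 change -0.40 ± 0.11, edgeR adjusted p = 0.0211). AT5G03850 had 239, 256 and 277 FPKM in the mutant, against 338, 351 and 314 FPKM in wild type (log2 change -0.33 ± 0.08, edgeR adjusted p = 0.0117). All mutant libraries lay below all wild-type libraries in these 3 genes and in AT3G43980, which had 60.5, 65.9 and 81.1 FPKM in the mutant, against 96.1, 87.0 and 97.5 FPKM in wild type (log2 change -0.38 ± 0.11, edgeR adjusted p = 0.0274). The call of AT5G27700 did not hold without ribosome-bound wild-type library 1 or mutant library 1 or 2, nor that of AT3G43980 without wild-type library 1 or 3 or mutant library 1 or 2, with an adjusted p of up to 0.0761 and 0.102. The other 2 calls held without any 1 library. With the correction for gene length, none of the 4 fell: AT3G10090 changed by -0.08 and AT5G03850 by 0.01 on the log2 scale.

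The change on ribosomes was lower than the change in total mRNA across the members. The difference of the changes (the interaction) was negative in 45 of 47 members, with a median of -0.32 on the log2 scale and of -0.006 among all tested genes. With the correction for gene length it was negative in 32 of the 47, and the median was -0.12. It passed the test in 9 members, all lower on ribosomes than in total mRNA, where 2.35% of all tested genes passed in that direction and 1.67%, and none of the members, in the other. With the replicate number as a block, 27 members passed, all lower on ribosomes, where 5.54% of all tested genes passed in that direction. With the length correction 3 passed, where 0.683% did. The count fell to 3 without total wild-type library 1 or 2 or total mutant library 3, where 137 to 158 of the 19170 tested genes passed in that direction. It fell to 4 without total wild-type library 3, total mutant library 2 or ribosome-bound mutant library 1, where 169 to 200 did. The count was 5 without ribosome-bound wild-type library 1 or 2 or ribosome-bound mutant library 2 (175 to 287 of all tested genes). It was 24 without ribosome-bound mutant library 3 (4.61% of all tested genes), while the median of the members stayed between -0.39 and -0.27.

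RPS15A had the lowest interaction, -0.95 ± 0.15 (edgeR adjusted p = 0.0106). On ribosomes RPS15A had 220, 261 and 298 FPKM in the mutant, against 252, 248 and 260 FPKM in wild type, so the groups overlapped there (log2 change 0.08 ± 0.11, edgeR adjusted p = 0.586), where they were far apart in total mRNA. AT5G27700 followed at -0.92 ± 0.16 (edgeR adjusted p = 0.0133). In total mRNA this gene had 157, 185 and 177 FPKM in the mutant, against 130, 128 and 137 FPKM in wild type (log2 change 0.52 ± 0.11, edgeR adjusted p = 0.0101). AT5G27700 was thus higher than wild type in every total mutant library and lower than wild type in every ribosome-bound one.

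AT5G28060 had an interaction of -0.74 ± 0.14 (edgeR adjusted p = 0.0236), with 316, 367 and 415 FPKM on ribosomes in the mutant, against 330, 384 and 362 FPKM in wild type. RPS18C had one of -0.73 ± 0.12 (edgeR adjusted p = 0.0116), with 197, 233 and 233 FPKM on ribosomes in the mutant, against 221, 225 and 214 FPKM in wild type. The ribosome-bound groups overlapped in both genes. Among the other members that passed were RPS13A at -0.55, RPS10B at -0.48, AT5G03850 at -0.46 and AT5G07090 at -0.44.

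RPS15A, RPS18C and AT5G27700 kept the interaction call without any 1 of the 12 libraries, and these 3 were also the members that passed with the correction for gene length, at -0.67, -0.48 and -0.58. The other 6 lost the call without 1 of several libraries. RPS10B lost it without total wild-type library 1 or 2 or total mutant library 3 (adjusted p up to 0.063). RPS13A, AT5G28060, AT5G03850 and AT5G07090 lost it without any 1 total wild-type library, total mutant library 2 or 3, ribosome-bound mutant library 1 or 2, or ribosome-bound wild-type library 2. Without ribosome-bound wild-type library 1 it was lost in the same genes except AT5G28060. The adjusted p reached 0.103 in RPS13A, 0.0729 in AT5G28060, 0.113 in AT5G03850 and 0.104 in AT5G07090.

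The highest interactions were those of AT5G59240 (0.14 ± 0.43), RPS6A (0.03 ± 0.10), RPSAb (-0.07 ± 0.22) and AT2G31610 (-0.09 ± 0.09), and none of them passed. AT2G31610 had 182, 196 and 191 FPKM on ribosomes in the mutant and 168, 182 and 193 FPKM in wild type, and in total mRNA 125, 133 and 137 FPKM in the mutant and 122, 123 and 129 FPKM in wild type. RPSAb (AT3G04770) had 6.77, 7.32 and 5.28 FPKM on ribosomes in the mutant and 4.88, 6.06 and 5.89 FPKM in wild type, and in total mRNA 5.09, 6.11 and 5.17 FPKM in the mutant and 5.003, 3.76 and 5.64 FPKM in wild type. AT5G59240 had 1.12, 1.88 and 1.03 FPKM on ribosomes in the mutant and 1.31, 1.57 and 1.84 FPKM in wild type. The groups overlapped in every one of these comparisons.

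Other ribosomal protein genes were set beside the members. Of all tested genes, 15.4% rose and 12% fell on ribosomes, and 10.4% rose and 6.54% fell in total mRNA. The interaction passed as lower on ribosomes in 2.35% of all tested genes and as higher in 1.67%. Of 49 other 40S genes listed, 42 were tested. On ribosomes 3 rose and 4 fell, in total mRNA 18 rose and 0 fell, and the interaction passed in 7, all lower on ribosomes, with medians of -0.07, 0.24 and -0.30. AT4G34670, the highest of them in total mRNA, had 249, 294 and 287 FPKM in the mutant, against 186, 178 and 190 FPKM in wild type, and a log2 change of 0.71 (edgeR adjusted p = 0.000387). AT1G15930 came next at 0.65 (edgeR adjusted p = 0.000774). The lowest were AT1G23410 at -0.14 and rps15ae (AT4G29430) at -0.10, neither of which passed.

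Of 116 tested genes of the large (60S) subunit, 8 rose and 12 fell on ribosomes, 80 rose and 3 fell in total mRNA, and 45 passed the interaction, all lower on ribosomes. The ribosome-bound counts were 6.9% and 10.3% of the 116, below the shares of all tested genes (15.4% and 12%). Those in total mRNA were 69% and 2.59% (10.4% and 6.54%), and that of the interaction was 38.8% (2.35%). The medians of the 60S genes were -0.03, 0.37 and -0.41. Of the 13 tested genes of the plastid 30S subunit, 7 rose on ribosomes and 6 in total mRNA, none fell, and none passed the interaction. Their medians were 0.28, 0.36 and -0.10. Of 22 genes that assemble ribosomes, 12 rose on ribosomes and 5 in total mRNA, with medians of 0.31, 0.18 and 0.16, and none passed the interaction. Of 5 genes of the TOR and S6 kinase pathway, 2 rose and 2 fell on ribosomes and 0 rose and 1 fell in total mRNA, and 2 passed the interaction, both higher on ribosomes. TOR itself, the kinase, had 3.20, 3.27 and 2.65 FPKM on ribosomes in the mutant, against 2.51, 2.38 and 2.64 FPKM in wild type (log2 change 0.32, edgeR adjusted p = 0.00997). In total mRNA TOR fell to 9.05, 8.13 and 8.59 FPKM in the mutant, against 11.7, 11.6 and 11.7 FPKM in wild type (log2 change -0.31, edgeR adjusted p = 0.0117). The interaction was 0.63 in TOR (edgeR adjusted p = 0.0106) and 0.38 in RAPTOR1, a partner of TOR (edgeR adjusted p = 0.0354). The length correction moved these counts too. With it the interaction passed in 1 of the other 40S genes and 14 of the 60S genes, all lower on ribosomes. It passed in none of the 5 TOR and S6 kinase genes. On ribosomes 6 of the other 40S genes rose and 0 fell, 28 of the 60S genes rose and 3 fell, and 0 of the 5 rose and 2 fell. Of all tested genes, 0.683% then passed the interaction as lower on ribosomes, and on ribosomes 8.68% rose and 9.58% fell. The difference between lists was not tested.

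**Figure D2:**
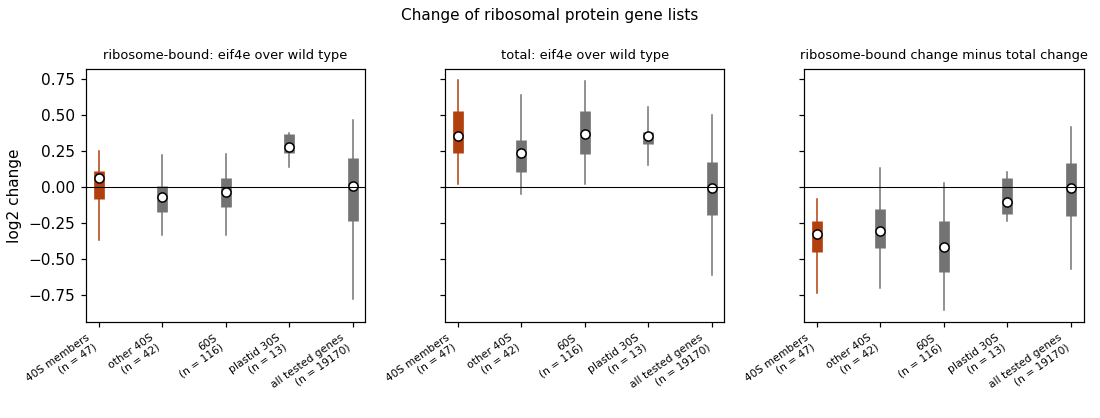
Log2 changes of 5 gene lists on ribosomes, in total mRNA and as the difference of the changes, with the median (open point), the middle range from the 25th to the 75th percentile (thick bar) and the 5th to 95th percentiles (thin line). The 47 members and the 116 genes of the 60S subunit have medians of 0.07 and -0.03 on ribosomes and 0.36 and 0.37 in total mRNA.

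Paralogues of one protein had unlike log2 changes in total mRNA, and the difference between the log2 changes was not tested. The distance between the highest and lowest log2 change of a set was widest in the RPS15A set (0.86), the set of AT5G20290 and AT5G59240 (0.78), the set of AT5G27700 and AT3G53890 (0.51) and the RPS18 set (0.48). The value of 0.78 rests on AT5G59240, with 13 to 38 counts per library. AT5G59850, the other gene of the partial RPS15A set, had 93.7, 99.5 and 97.2 FPKM in total mutant mRNA, against 91.8, 94.8 and 95.9 FPKM in wild type. AT5G59850 did not pass the test (log2 change 0.17 ± 0.05, edgeR adjusted p = 0.055), though it did with the replicate block (0.0323). Among the paralogues left out of this set, RPS15AD rose in total mRNA (log2 change 0.39 ± 0.08, edgeR adjusted p = 0.0077). The left-out rps15ab and rps15ae did not pass there (log2 change 0.004 and -0.10). On ribosomes AT5G59850 had 141, 155.5 and 141.5 FPKM in the mutant, against 165, 156.5 and 153 FPKM in wild type (log2 change -0.07 ± 0.05), with overlap. AT5G20290 had 431, 471 and 478 FPKM in the mutant, against 361, 355 and 380 FPKM in wild type, and rose by 0.46 ± 0.07 (edgeR adjusted p = 0.00121), beside its nearly silent paralogue AT5G59240. In the RPS18 set, RPS18A (AT1G22780), known from the pointed first leaves of its mutant, had 123, 136 and 139 FPKM in the mutant, against 106, 101 and 103 FPKM in wild type. RPS18A rose by 0.48 ± 0.09 (edgeR adjusted p = 0.00553). AT1G34030 had 126, 137 and 139 FPKM in the mutant, against 118, 113 and 125 FPKM in wild type, and did not pass (log2 change 0.30 ± 0.10, edgeR adjusted p = 0.0611), though it did with the replicate block (0.0122) and without ribosome-bound mutant library 3 (0.0156). All total mutant libraries lay above those of wild type in all 3 RPS18 genes. On ribosomes RPS18A had 147.5, 169 and 183.5 FPKM in the mutant, against 155, 171 and 178 FPKM in wild type, and AT1G34030 had 194, 206 and 246.5 FPKM in the mutant, against 199.5, 232 and 222.5 FPKM in wild type. Their groups overlapped there, as did those of RPS18C, with log2 changes of 0.04, 0.03 and 0.05 in RPS18A, AT1G34030 and RPS18C.

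In the RPS6 and RPS13 sets the distance in total mRNA was 0.305 and 0.224, narrower than in the 4 widest sets. In the interaction the 2 RPS6 genes lay 0.342 apart (RPS6A 0.03, RPS6B -0.32). RPS6B had 223, 263 and 261 FPKM in total mutant mRNA, against 180, 178 and 193 FPKM in wild type (log2 change 0.57 ± 0.08, edgeR adjusted p = 0.000977). RPS6A had 187, 196 and 213 FPKM in the mutant, against 181, 180 and 182 FPKM in wild type (log2 change 0.26 ± 0.07, edgeR adjusted p = 0.0237), and lost its call without any 1 total wild-type library or total mutant library 3 (adjusted p up to 0.0898). RPS6B thus stood above RPS6A in every total mutant library, while the levels of the 2 genes on ribosomes lay within the same range.

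RPS13A (AT4G00100), whose mutant also has pointed first leaves, had 205, 242 and 241 FPKM in total mutant mRNA, against 186, 176 and 187 FPKM in wild type (log2 change 0.45 ± 0.09, edgeR adjusted p = 0.00689). Its paralogue AT3G60770 had 139, 148 and 151 FPKM in the mutant, against 137, 133 and 139 FPKM in wild type (log2 change 0.23 ± 0.07, edgeR adjusted p = 0.0359), and lost the call without any 1 of the 6 total libraries (adjusted p up to 0.109). On ribosomes RPS13A had 244, 283 and 287 FPKM in the mutant, against 327, 287 and 284 FPKM in wild type, and AT3G60770 had 208, 229 and 237 FPKM in the mutant, against 254, 236 and 250 FPKM in wild type. Their log2 changes there were -0.10 and -0.09, and neither passed.

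The 3 genes of RPS28, a small protein near the exit of the mRNA channel, did not pass the test in total mRNA. AT5G03850 had 151, 169 and 173 FPKM in total mutant mRNA, against 166, 162 and 164 FPKM in wild type (log2 change 0.13 ± 0.08, edgeR adjusted p = 0.257). RPS28 (AT5G64140) had 95.8, 110 and 110 FPKM in the mutant, against 103, 98.4 and 97.4 FPKM in wild type (log2 change 0.21 ± 0.10, edgeR adjusted p = 0.161). On ribosomes RPS28 had 175, 173 and 204 FPKM in the mutant, against 245, 228 and 205 FPKM in wild type. Every mutant library was lower there, and the change of -0.25 ± 0.09 did not pass (edgeR adjusted p = 0.0736), though it did with the replicate block (0.0488) and without ribosome-bound wild-type library 3 or mutant library 3 (down to 0.0168). With the values of AT3G10090 and AT5G03850 above, all 3 genes of the set had ribosome-bound levels in the mutant below those of wild type. Their ribosome-bound log2 changes with the length correction were -0.08 in AT3G10090, 0.01 in AT5G03850 and 0.08 in RPS28.

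**Figure D3:**
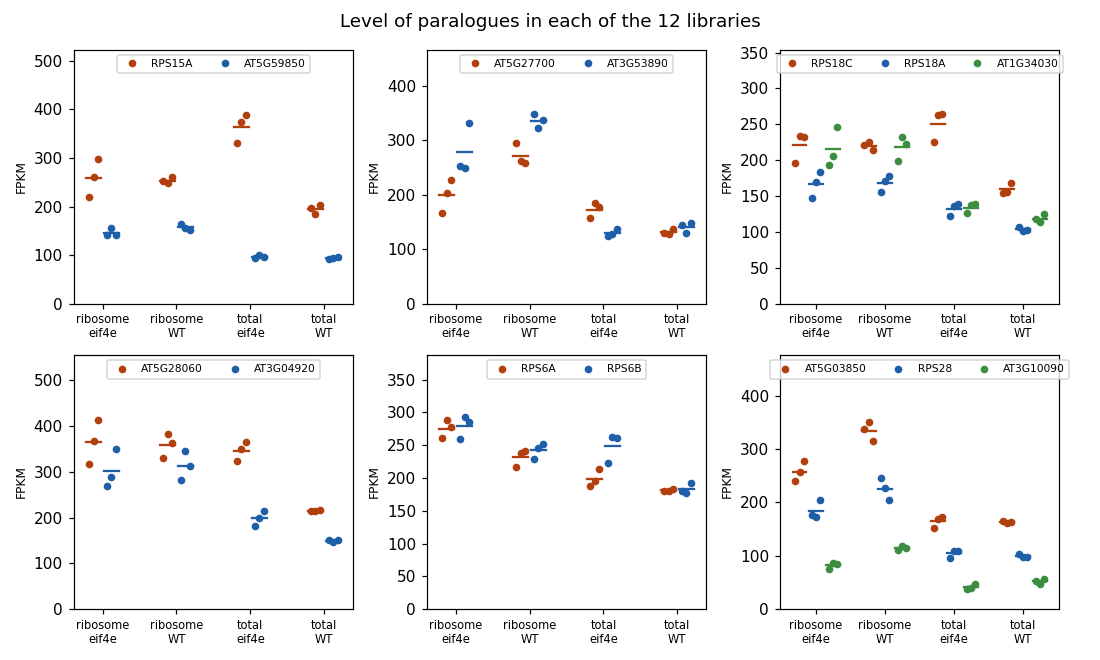
FPKM of the paralogues of 6 sets in the 12 libraries (points) with group means (lines), ribosome-bound groups left of total groups and the eif4e mutant left of wild type. RPS15A stands between 332 and 388 FPKM in total mutant libraries and between 185 and 203 FPKM in total wild type, while its ribosome-bound groups overlap.

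On ribosomes the distance between the highest and lowest log2 change of a set was at most 0.37. The widest set was again that of AT5G20290 and AT5G59240, followed by the set of AT2G36160, AT3G11510 and AT3G52580 (0.24), that of AT4G25740, RPS10B and AT5G52650 (0.19) and the RPS28 set (0.18). None of the members of the first 3 of these sets passed the test on ribosomes, though AT5G20290 rose with the replicate block (log2 change 0.18, edgeR adjusted p = 0.0165). AT2G36160 had 228, 225 and 277 FPKM in ribosome-bound mutant mRNA, against 225, 231 and 256 FPKM in wild type. AT3G11510 had 285, 310 and 336 FPKM in the mutant, against 340, 317 and 335 FPKM in wild type. AT3G52580 had 82.3, 86.5 and 95.02 FPKM in the mutant, against 101, 95.9 and 107 FPKM in wild type, and was the only gene of the 3 without overlap between the groups. RPS10B (AT5G41520), a protein near the entry of the mRNA channel, had 196, 218 and 211 FPKM in the mutant, against 231, 231 and 217 FPKM in wild type. AT4G25740 had 166, 170 and 192 FPKM in the mutant and 162, 172 and 172 FPKM in wild type, and AT5G52650 had 149, 163 and 171 FPKM in the mutant and 152, 161 and 148 FPKM in wild type. AT5G20290 had 547, 587 and 591 FPKM in the mutant, against 524, 502 and 547 FPKM in wild type.

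The make-up of each set was expressed as the share of each gene in the summed FPKM of its set, for 18 sets of 2 or 3 genes, which gave 32 shares to compare. The mutant and wild-type shares did not overlap in 6 of the 32 on ribosomes (18.8% of the 32) and in 24 of the 32 in total mRNA (75%). No such count was made for other genes, so no rate over all genes stands beside these. The shares of a set sum to a whole and are not independent. By exact two-sided permutation tests of 3 libraries against 3, the smallest p that the design allows is 0.1, and the smallest adjusted p was 0.533 on ribosomes and 0.133 in total mRNA, so no share passed. The median size of the mutant-minus-wild-type difference was 0.797 percentage points on ribosomes and 2.04 points in total mRNA. The difference was larger in total mRNA in 28 of the 32 shares, which come from the same genes and paired libraries.

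RPS15A showed the largest shift of share, in a set that leaves out RPS15AD, rps15ab and rps15ae. It made up 63.8 ± 3.6% of its set on ribosomes in the mutant and 61.6 ± 1.3% in wild type, and 79.0 ± 0.99% in total mRNA in the mutant and 67.5 ± 1.2% in wild type (SD, n = 3 each). AT5G27700 made up 41.8 ± 2.8% of its set on ribosomes in the mutant and 44.7 ± 1.3% in wild type, and 57.1 ± 1.7% in total mRNA in the mutant and 48.3 ± 1.1% in wild type. RPS18C made up 36.6 ± 1.6% on ribosomes in the mutant and 36.3 ± 1.9% in wild type, and 48.4 ± 0.87% in total mRNA in the mutant and 41.8 ± 0.96% in wild type. In each of these 3 genes the total mRNA shares of the genotypes were apart and the ribosome-bound shares overlapped.

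The same held for RPS13A, which made up 54.7 ± 0.64% on ribosomes in the mutant and 54.8 ± 1.5% in wild type, and 61.0 ± 1.3% in total mRNA in the mutant and 57.3 ± 0.29% in wild type. RPS6A was lower in total mRNA, at 44.4 ± 1.5% in the mutant and 49.7 ± 0.93% in wild type, and stood at 49.7 ± 0.42% in the mutant and 49.0 ± 0.30% in wild type on ribosomes. AT5G28060 made up 54.7 ± 1.1% on ribosomes in the mutant and 53.4 ± 0.63% in wild type, and 63.5 ± 0.58% in total mRNA in the mutant and 59.0 ± 0.39% in wild type. Some sets were held almost wholly by 1 gene in both genotypes. RPSAA made up 97.0% of its set on ribosomes in the mutant and 97.1% in wild type, and AT5G20290 99.8% in the mutant and 99.7% in wild type. AT5G02960, the paralogue of the untested AT3G09680, made up 99.9% in the mutant and 99.8% in wild type.

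**Figure D4:**
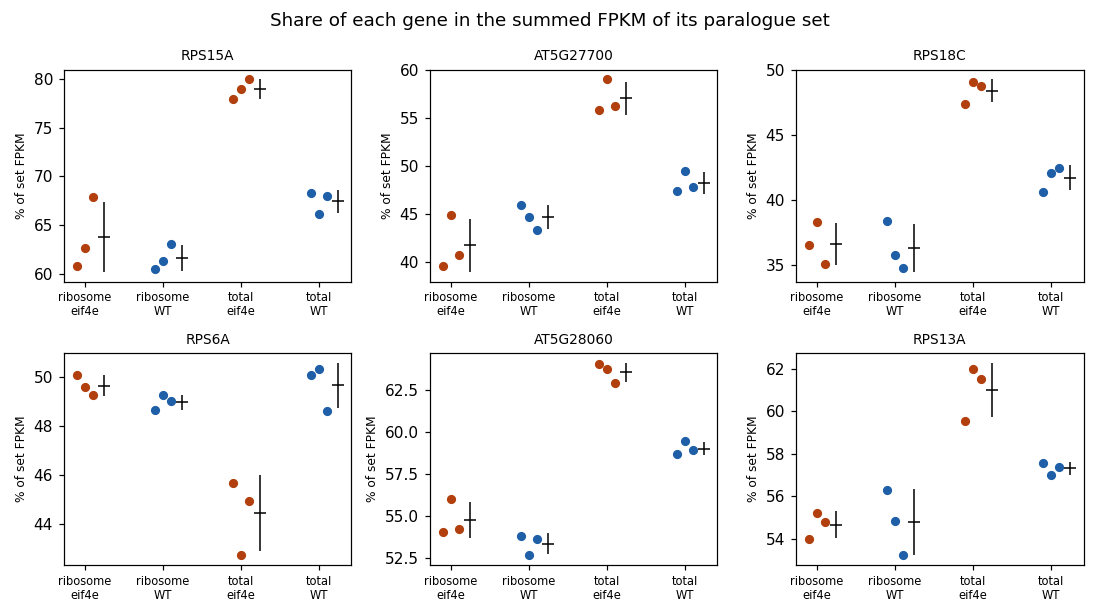
Share of 6 genes in the summed FPKM of their paralogue sets (%), with 1 point per library and the mean ± SD beside it, ribosome-bound groups left of total groups and the eif4e mutant left of wild type. The 3 total mutant shares of RPS15A lie at 78.0 to 80.0%, above 66.1 to 68.3% in total wild type.

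Ribosome association, the level in ribosome-bound mRNA over that in total mRNA of the same genotype, was high for 40S genes before any correction for gene length, and not with it. In the mutant 31 of the 47 members were higher on ribosomes and 2 were lower, where 29.1% and 29.3% of all tested genes were, and the median log2 difference was 0.36. In wild type 44 were higher and 0 lower, where 33.8% and 33.6% of all tested genes were, and the median was 0.83. These medians were higher still in the other 40S and the 60S genes, at 0.64 and 0.495 in the mutant and 0.93 and 0.90 in wild type. With the length correction 8 members were higher and 20 lower in the mutant (median -0.14), where 18.5% and 20.8% of all tested genes were, and 11 were higher and 11 lower in wild type (median -0.01), where 20.6% and 22.5% were. Of the 44 members called higher in wild type, 11 passed in the same direction with the correction and 9 in the opposite one. The values by gene that follow are uncorrected unless stated. Both comparisons take part in the interaction above, and these values are the mutant and wild-type sides of it.

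In the mutant, association was highest in AT3G53890 (1.14), RS27A (1.08) and AT1G48830 (1.04), and lowest in RPS15A (-0.45), RPSAA (-0.31) and RPS18C (-0.15). RPS15A had 220, 261 and 298 FPKM on ribosomes, against 332, 375 and 388 FPKM in total mRNA, and was lower on ribosomes (log2 difference -0.45 ± 0.11, edgeR adjusted p = 0.00321). RPSAA had 199, 222 and 210 FPKM on ribosomes, against 247, 277 and 278 FPKM in total mRNA (log2 difference -0.31 ± 0.07, edgeR adjusted p = 0.00273). RPS18C did not pass. All 3 passed as lower with the length correction, at -1.11 in RPS15A, -0.58 in RPSAA and -0.74 in RPS18C (edgeR adjusted p = 2.67e-06, 6.84e-05 and 1.63e-05). AT3G53890 had 254, 248 and 331 FPKM on ribosomes, against 124, 128 and 137 FPKM in total mRNA (log2 difference 1.14 ± 0.11, edgeR adjusted p = 9.42e-06), without overlap. AT1G48830 had 211, 206 and 239 FPKM on ribosomes, against 102, 110 and 115 FPKM in total mRNA (log2 difference 1.04 ± 0.12, edgeR adjusted p = 2.48e-05). With the correction AT3G53890, RS27A and AT1G48830 were at 0.34, 0.32 and 0.53 and still passed as higher.

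In wild type, association was highest in AT3G53890 (1.37), RS27A (1.31) and RPS28 (1.30), and lowest in AT5G59240 (-0.10), RPSAA (-0.09) and AT5G58420 (0.24). AT3G53890 had 348, 323 and 337 FPKM on ribosomes, against 145, 131 and 149 FPKM in total mRNA (log2 difference 1.37 ± 0.11, edgeR adjusted p = 1.12e-06), without overlap. RS27A (AT3G61110), a protein with a zinc finger, had 446, 410 and 420 FPKM on ribosomes, against 186, 180 and 192 FPKM in total mRNA (log2 difference 1.31 ± 0.09, edgeR adjusted p = 2.72e-07). RS27A had 341, 352 and 402 FPKM on ribosomes and 159, 186 and 188 FPKM in total mRNA in the mutant. RPSAA had 183, 172 and 200.1 FPKM on ribosomes and 212, 208 and 221 FPKM in total mRNA in wild type, and did not pass there (log2 difference -0.09 ± 0.07, edgeR adjusted p = 0.293). AT5G58420 had 116, 109 and 114 FPKM on ribosomes, against 101, 101 and 110 FPKM in total mRNA, and passed (edgeR adjusted p = 0.00492), with the lowest ribosome-bound library just under the highest total one. Wild-type association with the length correction was 0.22 in AT3G53890 and 0.205 in RS27A, which still passed, and -0.01 in RPS28 (edgeR adjusted p = 0.889). AT5G58420 and RPSAA then passed as lower on ribosomes, at -0.24 and -0.45 (edgeR adjusted p = 0.00403 and 0.000299), as did AT5G59240 at -0.86 (edgeR adjusted p = 0.0366).

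Gene length moved with these values. All 47 tested members were shorter than the median tested gene, at 0.264 to 0.811 of its length. Among the 15 shortest members the median association was 0.60 in the mutant and 1.15 in wild type, and among the 15 longest it was 0.15 in the mutant and 0.47 in wild type. The ribosome-bound genotype change had a median of -0.10 in the shortest and 0.19 in the longest members, while the total mRNA change had medians of 0.45 and 0.44. In the 17 members of middle length the ribosome-bound change had a median of 0.04 and the total mRNA change one of 0.28. The interaction had medians of -0.435, -0.307 and -0.316 in the shortest, middle and longest members. Across the 47 members, which share the libraries, the log2 of length had a Pearson correlation of 0.81 (Spearman 0.70) with the ribosome-bound genotype change and of 0.30 (Spearman 0.19) with the total mRNA change. With the interaction it was 0.33 (Spearman 0.43). With association it was -0.53 in the mutant and -0.73 in wild type (Spearman -0.51 and -0.74).

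The correction used above takes each gene's deviation from its own mean over the 12 libraries and removes the trend of these deviations with gene length in each library. A difference between groups that genes of like length share is thus removed too, whatever its source. The rise in total mRNA stayed with the correction at 27 members higher and 1 lower (median 0.27), where 9.6% and 8.07% of all tested genes were. The part of length itself and of other properties that short genes share was not tested.

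**Figure D5:**
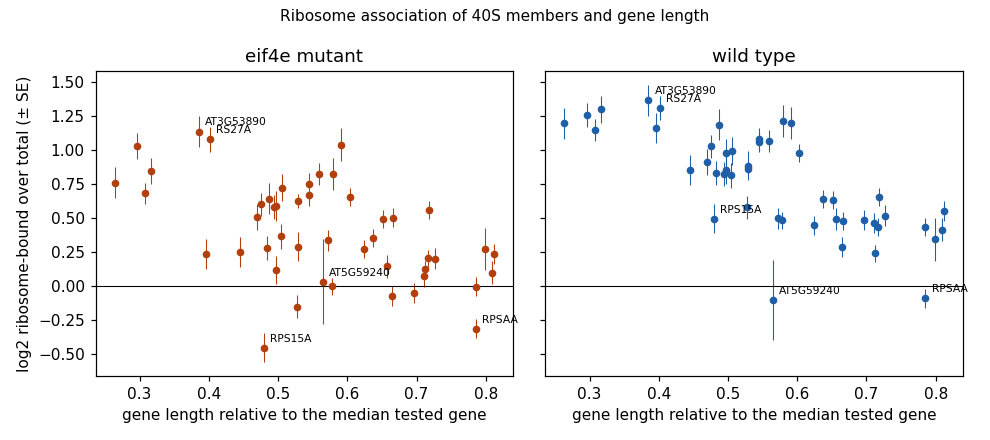
Ribosome association (log2 of ribosome-bound over total mRNA, ± SE) of the 47 tested 40S genes against gene length relative to the median tested gene, in the eif4e mutant (left) and wild type (right). Short genes stand higher in both genotypes, and RPS15A falls below 0 in the mutant (-0.45) and lies above it in wild type (0.50). RPS15A was below 0 in both with the length correction, at -1.11 in the mutant and -0.44 in wild type (edgeR adjusted p = 2.67e-06 and 0.000764).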

How the data were processed

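Total and ribosome-bound poly(A) RNA of eif4e mutant and wild-type seedlings was sequenced in 12 libraries (4 groups of 3, from the labels). Each deposited table holds, per gene, a read count and an FPKM value that the authors computed. The submitters' processing notes name TopHat2 2.0.11 and the TAIR10 build. How reads were counted per gene is not given in the sources used. Genes absent from 1 or more tables (3308, with at most 51 counts elsewhere) counted as 0 there. Symbols came from RefSeq (TAIR10.1). Gene lengths were computed back from counts and FPKM. Near-identical paralogues are uncertain where counting could have split their reads.

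The 19170 genes that averaged 1 FPKM or more were fitted with edgeR 4.0.16 in R 4.3.3 (quasi-likelihood test, TMM scaling, 1 mean per group, 8 residual degrees of freedom, common dispersion 0.0185). Two-sided p-values were adjusted by Benjamini-Hochberg over all tested genes, with a threshold of 0.05. The fitting script was tested on simulated data. Log2 changes carry standard errors, and FPKM and shares carry SDs. The TMM factors were 1.046 to 1.088 in total wild type and 0.990 to 0.992 in total mutant. FPKM values were not rescaled by them, so statements on overlap of FPKM and calls by the fit rest on different scales. The members and lists were chosen with earlier results of these data known. Values per library are given for the 4 highest and 4 lowest members of each genotype comparison, the 3 highest and lowest of each association, fixed paralogue sets (RPS6, RPS13, RPS18, RPS28) and the 4 sets with the widest paralogue spread, while 2 members enter the counts and are not reported singly here. Same-numbered libraries deviated together in all 12 pairings (correlations of 0.193 to 0.772), so replicate numbers were taken as pairs in the within-replicate values and the replicate block. The pairing was weak for mutant library 1, which correlated more with wild-type library 3 (0.266 in total mRNA, 0.221 on ribosomes) than with wild-type library 1 (0.228 and 0.193). The main fit, which gave the p-values by gene unless stated, and the permutation tests leave the pairing out. Counts of replicate libraries differed beyond sampling noise (chi-square of 7.05 or more per degree of freedom), so each was 1 replicate. Alternatives were other scalings, filters, DESeq2 1.42.0, the replicate block, a length correction and leaving out libraries. The length correction was a loess on log length, in each library, of each gene's log count (scaled for depth) minus its mean over the libraries.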

Additional observations from a re-analysis of the deposited data

Results flagged for a closer look

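The genotype change on ribosomes differed from that in total mRNA by a direct test of the difference in 9 of the 47 tested members, and that test is what singles them out. Of all tested genes, 2.35% passed as lower on ribosomes and 1.67% as higher. All 9 were lower on ribosomes, among them RPS15A by -0.948, AT5G27700 by -0.924, AT5G28060 by -0.738, RPS18C by -0.731, RPS13A by -0.550, RPS10B by -0.484, AT5G03850 by -0.464 and AT5G07090 by -0.436 on the log2 scale. RPS15A, AT5G27700 and RPS18C are the 3 that also passed with the length correction and without any 1 library. No explanation was tested.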

How the results depend on the processing

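The rise in total mRNA kept its direction in every alternative run. With the alternatives that keep all libraries, 25 (library size alone) to 38 (replicate block) of the members rose, where 1022 and 3225 of the 19170 tested genes did. Without 1 library or 1 replicate number 16 to 35 rose. The 16 came without replicate 3 (575 of all tested genes) and the 35 without ribosome-bound mutant library 3 (2061). Library size alone moved the median of the members in total mRNA from 0.36 to 0.25 and that of all tested genes to -0.11. With it 1 member and 3034 of all tested genes were lower there. The median of all tested genes in wild-type association moved to -0.12. The length correction, alone or with the replicate block, also gave 1 lower member in total mRNA, where 8.07% and 18.4% of all tested genes were lower. On ribosomes the number higher was 1 with library size alone (2118 of all tested genes), 3 with upper-quartile scaling (2486), 16 with the length correction (1664), 26 with the length correction and replicate block (2886), 0 with the 2 groups alone (1348) and 0 to 6 with libraries or numbers left out. The 0 came without replicate 1, where 4 of all tested genes rose and 8 fell, and without replicate 2, where 1564 rose and 1362 fell. The number lower was 0 with the length correction (9.58% of all tested genes) and with the block added (19.5%), and 1 with the 2 groups alone (1362 of all tested genes). With libraries left out it was 0 to 7, and the median ran from -0.032 to 0.124. The 7 came without ribosome-bound mutant library 3, where 11.4% of all tested genes fell. The interaction passed as lower on ribosomes in 23 members with DESeq2 (3.64% of all tested genes), 27 with the replicate block (5.54%), 3 with the length correction (0.683%) and 0 to 24 with libraries or numbers left out. Without replicate 1 or 2 it passed in 0 of the 19170 tested genes, so the 0 members there say nothing about the members. With the length correction, alone and with the replicate block, association had medians of -0.012 and -0.013 in wild type (11 higher and 11 lower in both) and -0.142 in the mutant (8 higher in both, 20 and 24 lower). With both, 25.4% of all tested genes were higher and 28.4% lower in wild type, and 23.5% and 27.1% in the mutant. Library size alone gave 1 lower member in wild type, where 7585 of all tested genes were lower. The cause of these shifts was not tested. The replicate block reversed no value.

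Some values changed sign, near 0 or, with the length correction, also far from it. AT3G53890 in total mRNA was -0.005 with median-ratio scaling and DESeq2, -0.103 with library size alone, -0.001 with upper-quartile scaling, -0.012 with the filter of 5 FPKM, -0.000 with the 2 groups alone and -0.087 with the length correction (also with the block), and ran from -0.032 to 0.048 with libraries left out. AT3G43980 in total mRNA was -0.061 with library size alone, -0.039 with the length correction and -0.038 with the block added, and -0.026 to 0.118 with libraries left out. With the length correction, and with the block added, the ribosome-bound change became 0.006 in AT5G03850, 0.091 and 0.090 in RPS13A, 0.022 in AT3G60770, 0.079 in RPS28, 0.099 and 0.098 in AT3G11510 and 0.053 in RPS10B. The interaction became 0.031 and 0.033 in AT2G31610, 0.016 and 0.021 in RPSAb and 0.218 in AT3G10090, and wild-type association -0.241 and -0.240 in AT5G58420 and -0.012 and -0.013 in RPS28, against 0.242 and 1.301 without it. Without and with the correction AT5G58420 passed in opposite directions, as did RPS15A in wild-type association (0.497 and -0.438). With library size alone RPSAb became 0.011 in the interaction, and RPS18A -0.001 and AT1G34030 -0.006 on ribosomes. With libraries left out, ribosome-bound changes ran from -0.089 to 0.139 in AT1G34030, -0.033 to 0.163 in AT2G36160, -0.119 to 0.030 in AT3G11510, -0.185 to 0.040 in RPS13A, -0.053 to 0.116 in RPS18A, -0.019 to 0.129 in RPS18C and -0.474 to 0.087 in AT5G59240. AT5G59240 ran from -0.661 to 0.022 in total mRNA, -0.217 to 0.748 in the interaction and -0.319 to 0.071 in wild-type association, and the interaction from -0.023 to 0.090 in RPS6A and -0.275 to 0.144 in RPSAb. At 1 to 2 FPKM the depth limits AT5G59240.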
